A study of Mus musculus with 16 samples.

Results

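Messenger RNA for the translation initiation and elongation factors was measured in the gastrocnemius, a fast skeletal muscle of the hind leg, of B6C3F1/J mice. The members were the array probes whose gene symbol starts with Eif1 to Eif6, Eef1 or Eef2, leaving out Eif4ebp1, Eif2s3x and Eif2s3y, and which were detected (p-value against background under 0.05) on 3 or more of the arrays. Of 92 probes for 55 genes that matched the symbols, 76 probes for 45 genes were kept, among 13706 probes that passed the same filter and 25697 on the table. Total RNA from 16 mice was hybridised to Illumina bead arrays, with 1 array per animal. The groups were wild-type mice given vehicle (WT vehicle, n = 4), wild-type mice given 4b (WT 4b, n = 5), mice carrying the N17182Q transgene and given vehicle (Tg vehicle, n = 4), and transgenic mice given 4b (Tg 4b, n = 3). The compound 4b inhibits histone deacetylases, and the series asks what it does to gene expression in muscle. N17182Q mice, as background, carry a prion promoter that makes them express the amino-terminal part of mutant huntingtin, with its long run of glutamines, so the fragment is made in brain and in many other tissues and not from the mouse's own huntingtin gene. The sources used here do not give age, sex, dose or length of treatment. Labels carry an animal number per array, so each array was taken as 1 animal, and a difference in bulk RNA cannot tell fewer cells of a type from less of an mRNA per cell.

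Translation starts when eIF2, carrying GTP and the initiator tRNA, joins the small ribosomal subunit together with eIF1, eIF1A, eIF3 and eIF5. eIF3 is the large scaffold that links this complex to the mRNA, which eIF4E, eIF4G and the helicase eIF4A bring in by its cap. Once the start codon is found, eIF5 triggers GTP hydrolysis, and eIF2B recharges eIF2 with GTP unless one of the eIF2 kinases has phosphorylated eIF2. During elongation eEF1A delivers each aminoacyl-tRNA, the eEF1B subunits recharge eEF1A, and eEF2 moves the ribosome along until eEF2 kinase switches it off. In adult skeletal muscle the eEF1A2 form takes the place of eEF1A1.

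The stretches before the starts of 6 genes are shown because the genotype results below turn on them: Eif3b, Eif3c, Eif3d and Eef2, which were called higher in transgenic muscle, and Eif2s2 and Eef2k, which were called lower. Each is the 250 bases before an annotated start in RefSeq (GRCm38.p6), written 5′ to 3′ on the gene's strand. Eef2k has 3 such windows, and the one shown is the farthest upstream of them; most of it lies within the annotated span of the gene, which begins at an earlier base. Capitals mark the E-box CACGTG or the ETS-type motif CCGGAAG read on either strand.
Eif3b (chr5:140419055-140419304, + strand): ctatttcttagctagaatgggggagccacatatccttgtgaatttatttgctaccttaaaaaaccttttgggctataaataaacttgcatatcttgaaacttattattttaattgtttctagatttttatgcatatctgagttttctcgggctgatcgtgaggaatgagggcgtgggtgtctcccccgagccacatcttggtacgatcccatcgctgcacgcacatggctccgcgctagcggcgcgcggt
Eif3c (chr7:126566367-126566616, - strand): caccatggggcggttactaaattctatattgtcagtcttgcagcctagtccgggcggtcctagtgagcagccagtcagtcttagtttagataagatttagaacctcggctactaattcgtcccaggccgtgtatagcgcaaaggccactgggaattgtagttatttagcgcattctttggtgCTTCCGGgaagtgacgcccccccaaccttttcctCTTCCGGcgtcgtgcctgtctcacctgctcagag
Eif3d (chr15:77970825-77971074, - strand): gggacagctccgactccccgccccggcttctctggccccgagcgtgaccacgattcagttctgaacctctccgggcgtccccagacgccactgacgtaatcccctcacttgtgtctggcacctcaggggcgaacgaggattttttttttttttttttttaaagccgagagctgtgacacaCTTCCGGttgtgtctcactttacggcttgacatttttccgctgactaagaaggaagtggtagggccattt
Eef2 (chr10:81176381-81176630, + strand): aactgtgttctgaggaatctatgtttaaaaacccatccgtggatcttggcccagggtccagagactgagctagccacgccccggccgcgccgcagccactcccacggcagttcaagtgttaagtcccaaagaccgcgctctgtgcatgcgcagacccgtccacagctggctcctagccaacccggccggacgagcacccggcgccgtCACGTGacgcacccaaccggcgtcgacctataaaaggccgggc
Eef2k (chr7:120842581-120842830, + strand): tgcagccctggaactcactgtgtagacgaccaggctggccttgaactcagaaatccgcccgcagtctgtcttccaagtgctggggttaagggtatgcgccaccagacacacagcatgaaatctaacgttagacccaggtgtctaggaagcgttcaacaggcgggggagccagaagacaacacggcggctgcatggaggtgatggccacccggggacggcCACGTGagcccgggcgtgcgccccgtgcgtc
Eif2s2 (chr2:154892907-154893156, - strand): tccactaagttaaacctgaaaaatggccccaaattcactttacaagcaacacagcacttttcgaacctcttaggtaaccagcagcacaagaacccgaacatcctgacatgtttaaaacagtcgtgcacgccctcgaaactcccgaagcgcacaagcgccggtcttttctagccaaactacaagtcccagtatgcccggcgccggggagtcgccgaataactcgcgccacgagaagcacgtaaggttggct
The Eif3c stretch held CCGGAAG at 68 and at 34 bases before the start, and that of Eif3d held it at 70 bases. Those of Eef2 and Eef2k held CACGTG at 43 and 31 bases before the starts of their windows, that of Eef2k within the gene's annotated span, while those of Eif3b and Eif2s2 held neither. RefSeq windows were found for 36 of the 45 genes, 49 windows in all. CACGTG, which reads the same on both strands, was in 24.5% of these 49 windows and in 6.02% of the 32851 windows of all genes. CCGGAAG or its reverse complement CTTCCGG was in 16.3% against 6.91%, and the cyclic AMP response motif TGACGTCA was in 0 of 49 against 1.55%. Among 21 windows of genes with a probe higher in transgenic muscle, 4 held CACGTG, and among 8 windows of genes with a lower probe, 1 did. A match is a string of letters in a window and does not show that a protein binds there.

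Values below are log2 intensities after background correction and quantile normalization, and differences are log2 differences between group means. A probe was called at an adjusted p under 0.05 in limma (Benjamini-Hochberg over 13706 probes). The share of probes detected on an array ran from 42.7% to 50.3%, and pairs of arrays correlated at 0.898 to 0.984. Skeletal muscle markers were detected for 9 of 9 tested genes on every array, and their list score, the mean difference from WT vehicle, ran from -0.13 to 0.04 on wild-type and from -0.38 to -0.08 on transgenic arrays. Fibroblast markers (6 of 6 genes tested) scored -0.73 to 1.90 on wild-type, -2.34 to -0.77 on Tg vehicle and -2.20 to -1.84 on Tg 4b arrays, so this score moved with genotype, and its part in the results was not tested. Lymphocyte markers (9 of 10 genes tested) scored above 0.5 on 6 arrays: WT vehicle 4, WT 4b 1 and 3, Tg vehicle 4, and Tg 4b 1 and 2. Adipocyte markers (6 of 8 genes tested) scored from -0.95 to 2.0 on wild-type and from -1.83 to 0.28 on transgenic arrays. Erythroid markers (3 of 4 genes tested) scored 3.03 on Tg 4b 3 and from -1.39 to 0.65 on the other arrays. Macrophage markers (5 of 7 genes tested) scored -1.63 to 0.91 on WT vehicle, 0.46 to 1.21 on WT 4b, -0.41 to 0.48 on Tg vehicle and -0.36 to 0.48 on Tg 4b arrays. The part of these 3 scores in the results was not tested beyond the covariate fit given below for adipocyte markers. Along the first principal component, with 37.2% of the variance, Tg vehicle 1 and Tg 4b 1 and 2 lay at 61.4, 66.2 and 63.2. The other transgenic arrays lay between -0.5 and 33.9, and the wild-type arrays between -37.3 and -14.8.

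With treatments averaged, probes of eIF3 subunits, several eIF4 factors and eEF2 were called higher in transgenic muscle, and probes of eIF2β, the eIF2 kinase PKR and eEF2 kinase were called lower. Fewer of these calls held when arrays that stood apart were left out, as given below. With both treatments averaged, 38 of 76 member probes (50%) were called, against 32.1% of all 13706 probes. Of these, 29 probes of 19 genes were higher (38.2% of members against 17.9% of all probes) and 9 probes of 8 genes were lower (11.8% against 14.3%). No overlap of the 7 transgenic with the 9 wild-type arrays was seen for 8 members (10.5%), against 5.48% of all probes. The median member difference was 0.21, ranging from -0.92 to 1.11, and the median over all probes was 0.01. Scaling the arrays to equal medians in place of quantiles moved the median of all probes to 0.12 and gave 37 higher and 4 lower members. In that fit 35.8% of all probes were called. Without the 6 arrays of high lymphocyte score, 4 members were called against 10.7% of all probes. These were Eif3b, Eif3c, Eif3d and Eef1akmt1. Without the 3 transgenic arrays far along the first component, 6 were called against 9.52%: Eif3b, Eif3c, Eif3d, 1 probe of Eif2s2 and 2 of Eef2. In neither fit was the share of the 76 members that were called above the share of all probes. Both of these fits leave Tg 4b 3 as the only Tg 4b array, which then carries the whole Tg 4b mean. The member medians in them were 0.16 and 0.18. With the lymphocyte score as a covariate, 38 members (50%) were called, 30 higher and 8 lower, against 36.6% of all probes. With the adipocyte score 31 were, 22 higher and 9 lower, against 30.4%.

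**Figure D1:**
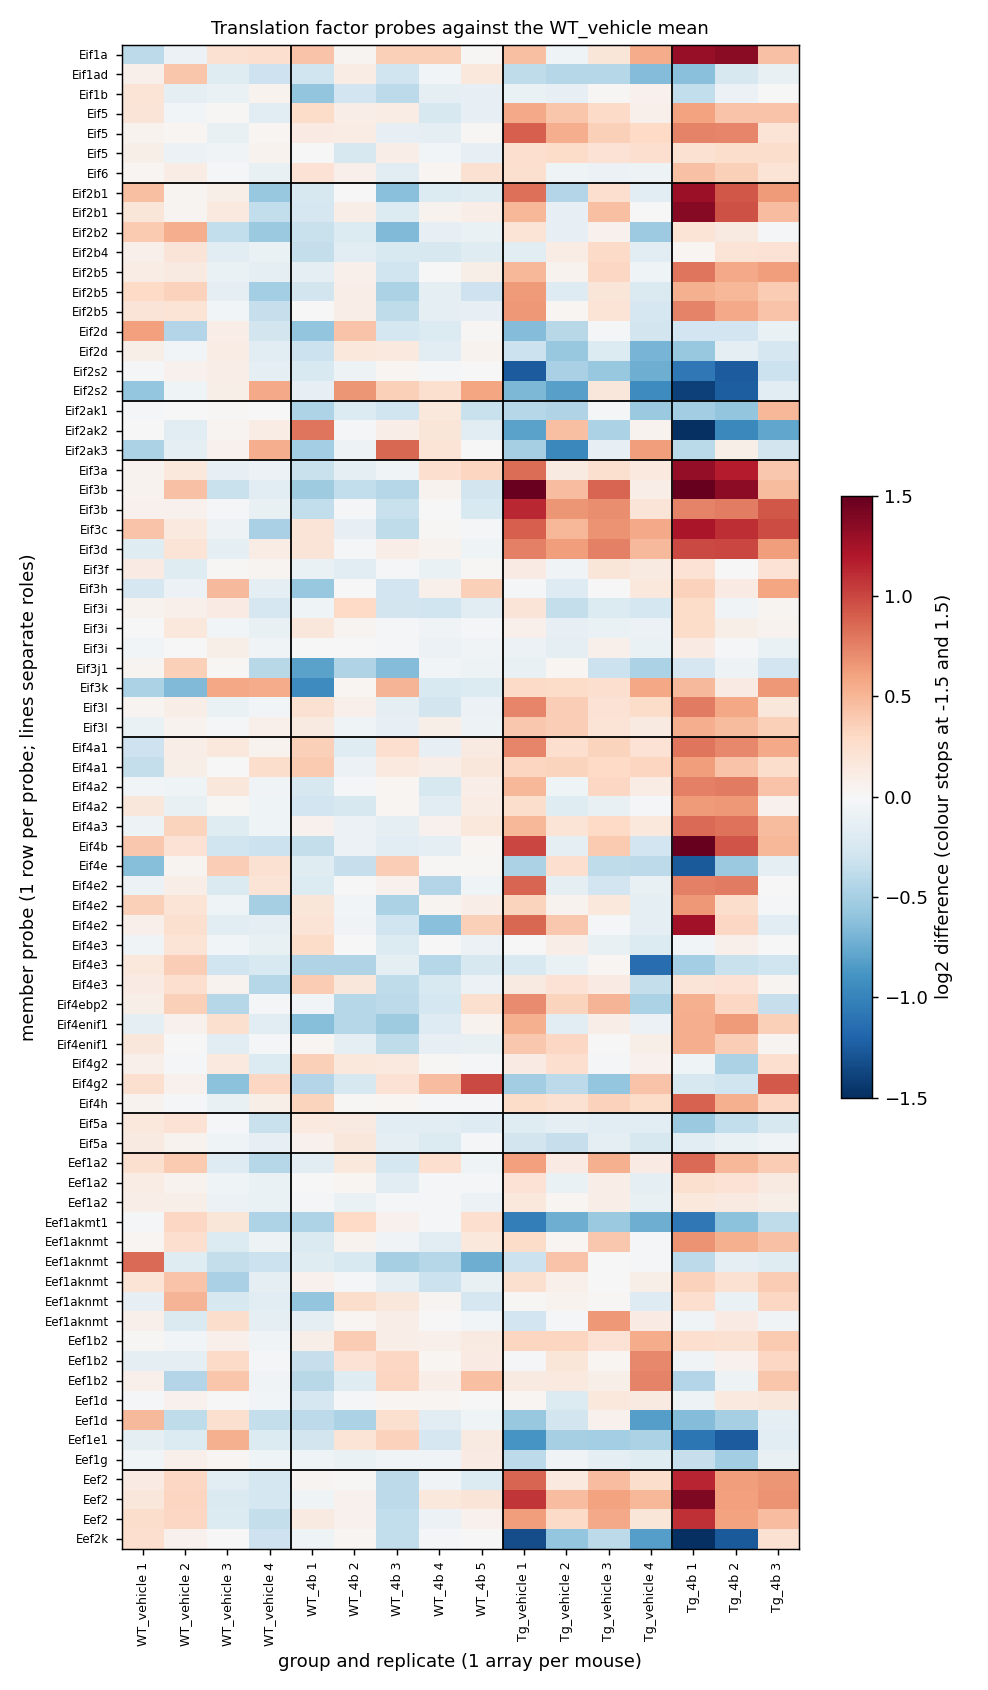
Heat map of the 76 member probes (rows, grouped by role) on the 16 arrays (columns, grouped by genotype and treatment); colour is the log2 difference from the WT vehicle mean, red higher and blue lower. Red rows for eIF3, eIF4 and eEF2 probes are deepest in Tg 4b array 1.

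Over the 14 eIF3 probes, the median difference from the WT vehicle mean was between 0.14 and 0.52 on each transgenic array and between -0.12 and 0.09 on each wild-type array. Over the 19 eIF4 probes it reached 0.63 on Tg 4b 1 and 0.37 on Tg 4b 2 but was 0.07 on Tg 4b 3 and -0.09 on Tg vehicle 4, which overlap the wild-type range of -0.13 to 0.10. By role, calls are given here beside 17.9% of all probes called higher and 14.3% called lower. eIF3 and eIF4 gave 7 of 14 and 8 of 19 probes higher and 0 lower. The eIF3 count includes the Eif3b probe ILMN_1233746, which passed the detection filter only through the transgenic arrays. That probe is also among the 29 members called higher. Among factors of the start codon and small subunit, 4 of 7 probes were higher and 1 lower. eIF2 with eIF2B split into 4 higher and 3 lower of 11, and eEF1 into 3 higher and 3 lower of 16. All 4 probes of eEF2 and its kinase were called, 3 higher and 1 lower. The eIF2 kinases had 1 of 3 probes lower, and neither probe of eIF5A was called. Of 20 genes with more than 1 member probe, 6 had both called and uncalled probes and 3 had probes with opposite signs (Eef1d, Eif3i and Eif4e3, none called).

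**Figure D2:**
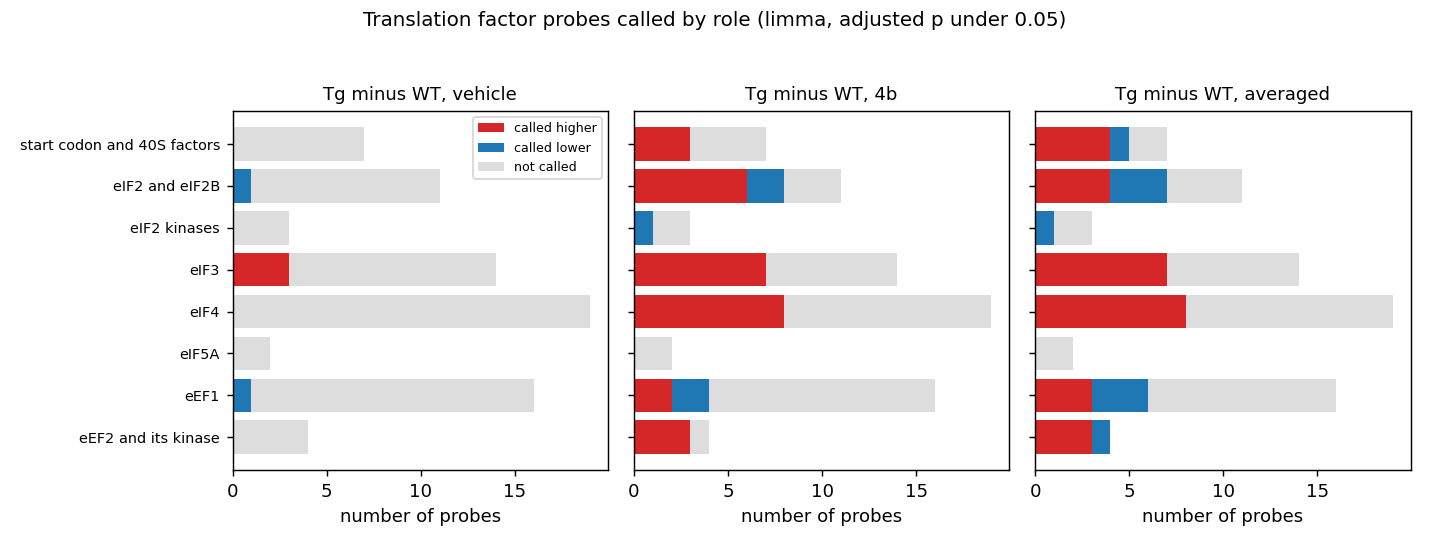
Number of member probes called higher (red), called lower (blue) and not called (grey) in transgenic against wild-type muscle by role, with vehicle, with 4b and averaged (limma, adjusted p under 0.05). With vehicle 5 probes were called, with 4b 34, and averaged 38. The eIF3 counts with 4b and averaged include the Eif3b probe ILMN_1233746, which passed the detection filter only through transgenic arrays.

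The calls that held under every alternative run were in eIF3, with treatments averaged. Eif3b, Eif3c and Eif3d, subunits of the scaffold, were higher in transgenic muscle with either treatment and did not overlap between genotypes. Eif3d (ILMN_2774163) read 11.56, 11.94, 11.61 and 11.85 in WT vehicle, 11.93, 11.71, 11.84, 11.79 and 11.67 in WT 4b, 12.49, 12.37, 12.50 and 12.23 in Tg vehicle and 12.73, 12.74 and 12.37 in Tg 4b. All 7 transgenic values lay above the 9 wild-type values, whose highest was 11.94. The averaged difference was 0.74 ± 0.10 (SE, adjusted p = 0.000114). Eif3c (ILMN_2615741) read 9.68, 9.40, 9.18 and 8.77 in WT vehicle, 9.45, 9.13, 8.88, 9.27 and 9.23 in WT 4b, 10.15, 9.75, 9.93 and 9.83 in Tg vehicle and 10.48, 10.36 and 10.24 in Tg 4b. Again the 7 transgenic arrays were above every wild-type array, by 0.91 ± 0.13 (SE, adjusted p = 0.000192). Eif3b (ILMN_2671259) read 9.32, 9.32, 9.23 and 9.14 in WT vehicle, 8.88, 9.22, 8.92, 9.25 and 9.02 in WT 4b, 10.38, 9.92, 9.95 and 9.45 in Tg vehicle and 10, 10.02 and 10.18 in Tg 4b. The 7 transgenic arrays lay above the wild-type ones, and the difference was 0.84 ± 0.12 (SE, adjusted p = 0.000196). These 3 averaged calls held under each of the 33 alternatives run. Their smallest differences were 0.71 for Eif3b, 0.78 for Eif3c and 0.60 for Eif3d. The calls with vehicle alone were lost in 22 of 33 alternatives for Eif3c, 11 for Eif3b and 2 for Eif3d. Those with 4b were lost only in fits that left out Tg 4b 1 and 2 together. The other Eif3b probe, ILMN_1233746, was below background on every WT 4b array. It was detected on 1 of 4 WT vehicle arrays and on all 4 Tg vehicle and all 3 Tg 4b arrays. This probe thus passed the filter only through the transgenic arrays, where it was high, and its differences are not separate support for Eif3b. It read 5.43, 5.81, 5.04 and 5.21 in WT vehicle, 4.84, 5.0, 4.94, 5.42 and 5.10 in WT 4b, 6.86, 5.83, 6.25 and 5.47 in Tg vehicle and 7.08, 6.72 and 5.85 in Tg 4b. The averaged difference was 1.11 ± 0.21 (SE, adjusted p = 0.00127), and with 4b the probe was at least 2.12-fold higher in transgenic than in wild-type muscle.

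Eif3a, the subunit around which the complex assembles, and Eif3l, another subunit, were also higher. Eif3a (ILMN_2735157) read 10.22, 10.33, 10.04 and 10.08 in WT vehicle, 9.83, 10.03, 10.11, 10.42 and 10.49 in WT 4b, 11, 10.30, 10.41 and 10.31 in Tg vehicle and 11.48, 11.35 and 10.57 in Tg 4b. The 3 Tg 4b arrays and Tg vehicle 1 were above all wild-type arrays, and the other Tg vehicle arrays lay among them. Its averaged difference was 0.65 ± 0.16 (SE, adjusted p = 0.00574). Eif3l (ILMN_2720520) read 11.85, 12, 11.92 and 12.03 in WT vehicle, 12.08, 11.89, 11.83, 12.04 and 11.87 in WT 4b, 12.35, 12.32, 12.16 and 12.08 in Tg vehicle and 12.50, 12.42 and 12.31 in Tg 4b. To 2 decimals, the lowest transgenic value equalled the highest wild-type value, and the averaged difference was 0.37 ± 0.08 (SE, adjusted p = 0.00378). The other Eif3l probe (ILMN_2613044) read 11.44, 11.50, 11.30 and 11.36 in WT vehicle, 11.63, 11.48, 11.27, 11.13 and 11.31 in WT 4b, 12.13, 11.77, 11.62 and 11.67 in Tg vehicle and 12.18, 11.98 and 11.57 in Tg 4b. Here 5 of 7 transgenic arrays exceeded the wild-type range, and the difference was 0.47 ± 0.12 (SE, adjusted p = 0.00656). The remaining 7 eIF3 probes, for Eif3f, Eif3h, Eif3i, Eif3j1 and Eif3k, were not called. Their averaged differences ran from -0.01 for 1 Eif3i probe and Eif3j1 to 0.47 ± 0.22 (SE) for Eif3k. The complex therefore showed called subunits beside subunits, such as the 3 Eif3i probes, whose differences were -0.01 to 0.03 with SE of 0.08 to 0.12.

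**Figure D3:**
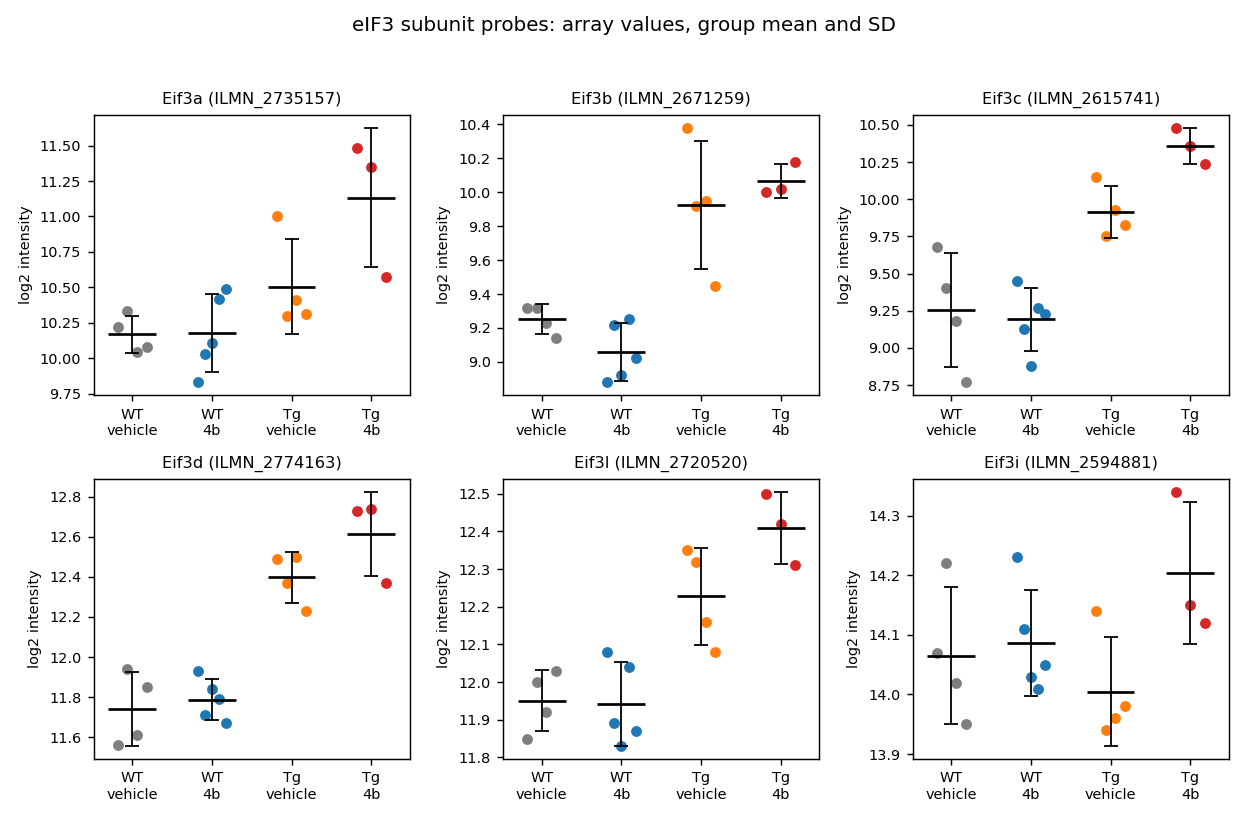
Log2 intensities of 6 eIF3 probes by group; each point is 1 array, and the bars are the group mean and SD. Eif3b, Eif3c and Eif3d separate all 7 transgenic from all 9 wild-type arrays, while the Eif3i groups overlap.

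Probes of eIF2 and of its exchange factor eIF2B had calls in both directions. Eif2s2, the β subunit of eIF2, was lower in transgenic muscle, and probes of Eif2b1 and Eif2b5, the α subunit and the catalytic ε subunit of eIF2B, were higher. Eif2s2 (ILMN_1256795) read 12.11, 12.20, 12.23 and 11.99 in WT vehicle, 11.90, 12.06, 12.16, 12.10 and 12.14 in WT 4b, 10.88, 11.65, 11.56 and 11.40 in Tg vehicle and 11.06, 10.89 and 11.81 in Tg 4b. All 7 transgenic arrays were below the lowest wild-type value of 11.90, and the averaged difference was -0.79 ± 0.14 (SE, adjusted p = 0.000842). The second Eif2s2 probe (ILMN_2774435) read 9.08, 9.60, 9.75 and 10.23 in WT vehicle, 9.54, 10.33, 10.02, 9.91 and 10.26 in WT 4b, 8.99, 8.85, 9.84 and 8.72 in Tg vehicle and 8.27, 8.43 and 9.50 in Tg 4b. It differed by -0.92 ± 0.23 (SE, adjusted p = 0.0061), with Tg vehicle 3 and Tg 4b 3 inside the wild-type range. Without the 3 far arrays its difference was -0.52 (adjusted p = 0.278), and without the 6 arrays of high lymphocyte score -0.46 (adjusted p = 0.255). Eif2b1 (ILMN_1215242) read 11.11, 10.70, 10.75 and 10.09 in WT vehicle, 10.42, 10.66, 10.04, 10.46 and 10.48 in WT 4b, 11.49, 10.22, 10.91 and 10.51 in Tg vehicle and 11.94, 11.60 and 11.30 in Tg 4b. All 3 Tg 4b arrays and Tg vehicle 1 exceeded the wild-type range, and the averaged difference was 0.66 ± 0.19 (SE, adjusted p = 0.0153). The other Eif2b1 probe (ILMN_2600508) read 9.38, 9.24, 9.35 and 8.83 in WT vehicle, 8.95, 9.30, 8.99, 9.25 and 9.30 in WT 4b, 9.70, 9.08, 9.65 and 9.19 in Tg vehicle and 10.57, 10.15 and 9.66 in Tg 4b. Its difference was 0.59 ± 0.15 (SE, adjusted p = 0.0072), with 5 of 7 transgenic arrays above the wild-type range. Without Tg 4b 1 the first Eif2b1 probe had a difference of 0.58 at an adjusted p of 0.05 and was no longer called. Without the 3 far arrays it was 0.38 (adjusted p = 0.296), and without the 6 of high lymphocyte score 0.39 (adjusted p = 0.326).

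For Eif2b5, 2 of 3 probes were called in the average and all 3 with 4b. Eif2b5 (ILMN_2602140) read 11.79, 11.81, 11.58 and 11.53 in WT vehicle, 11.54, 11.75, 11.38, 11.68 and 11.77 in WT 4b, 12.17, 11.73, 11.99 and 11.61 in Tg vehicle and 12.48, 12.25 and 12.30 in Tg 4b. The averaged difference was 0.46 ± 0.11 (SE, adjusted p = 0.00424), and the 3 Tg 4b arrays were above the 4 Tg vehicle arrays. The second probe (ILMN_2930067) read 11.78, 11.79, 11.55 and 11.24 in WT vehicle, 11.59, 11.69, 11.21, 11.44 and 11.47 in WT 4b, 12.24, 11.62, 11.79 and 11.34 in Tg vehicle and 12.33, 12.16 and 12.02 in Tg 4b. It differed by 0.42 ± 0.14 (SE, adjusted p = 0.0257), and leaving out WT vehicle 4, Tg 4b 2 or Tg 4b 1 raised its adjusted p to 0.0501, 0.0529 or 0.0699. The third probe (ILMN_2715215) read 10.36, 10.40, 9.92 and 9.55 in WT vehicle, 9.78, 10.16, 9.58, 9.92 and 9.75 in WT 4b, 10.70, 9.87, 10.24 and 9.84 in Tg vehicle and 10.59, 10.55 and 10.44 in Tg 4b. Its averaged difference was 0.39 ± 0.16 (SE) with an adjusted p of 0.067, and with 4b it was 0.69 ± 0.23 (adjusted p = 0.0343). That call was lost on leaving out any of 6 single arrays, at adjusted p from 0.0527 to 0.111. Eif2b4 (ILMN_2721894), the δ subunit, read 11.71, 11.83, 11.47 and 11.54 in WT vehicle, 11.28, 11.47, 11.41, 11.40 and 11.46 in WT 4b, 11.48, 11.75, 11.92 and 11.47 in Tg vehicle and 11.67, 11.84 and 11.86 in Tg 4b. It was called with 4b alone, at 0.39 ± 0.14 (SE, adjusted p = 0.0499), and 13 of the single-array omissions ended that call, at adjusted p up to 0.151. Eif2b2, the β subunit, was not called in any comparison and differed by 0.14 ± 0.17 on average.

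Eif2d, a factor that can place the initiator tRNA without eIF2, had 1 of 2 probes lower. Eif2d (ILMN_2814333) read 9.60, 9.47, 9.62 and 9.35 in WT vehicle, 9.19, 9.67, 9.66, 9.34 and 9.56 in WT 4b, 9.19, 8.94, 9.31 and 8.81 in Tg vehicle and 8.94, 9.37 and 9.26 in Tg 4b. The 4 Tg vehicle arrays did not overlap WT vehicle, and the averaged difference was -0.37 ± 0.11 (SE, adjusted p = 0.0205); without Tg 4b 1 it was -0.31 (adjusted p = 0.0668). Of the kinases that phosphorylate eIF2, Eif2ak2 (PKR, which responds to double-stranded RNA) was lower. Eif2ak2 (ILMN_1250410) read 8.86, 8.70, 8.89 and 8.96 in WT vehicle, 9.65, 8.82, 8.95, 9.03 and 8.69 in WT 4b, 8.05, 9.30, 8.38 and 8.91 in Tg vehicle and 7.35, 7.88 and 8.07 in Tg 4b. Tg vehicle 2 and 4 lay within the wild-type range, and the 3 Tg 4b arrays were all under 8.1. The averaged difference was -0.73 ± 0.19 (SE, adjusted p = 0.00823), and scaling by medians ended the call at -0.54 (adjusted p = 0.0518). Without the 3 far arrays the difference was -0.47 (adjusted p = 0.197), and without the 6 of high lymphocyte score -0.51 (adjusted p = 0.205). Eif2ak1 (HRI, which responds to haem) and Eif2ak3 (PERK, of the endoplasmic reticulum) differed by -0.17 ± 0.15 and -0.26 ± 0.24 (SE) and were not called.

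**Figure D4:**
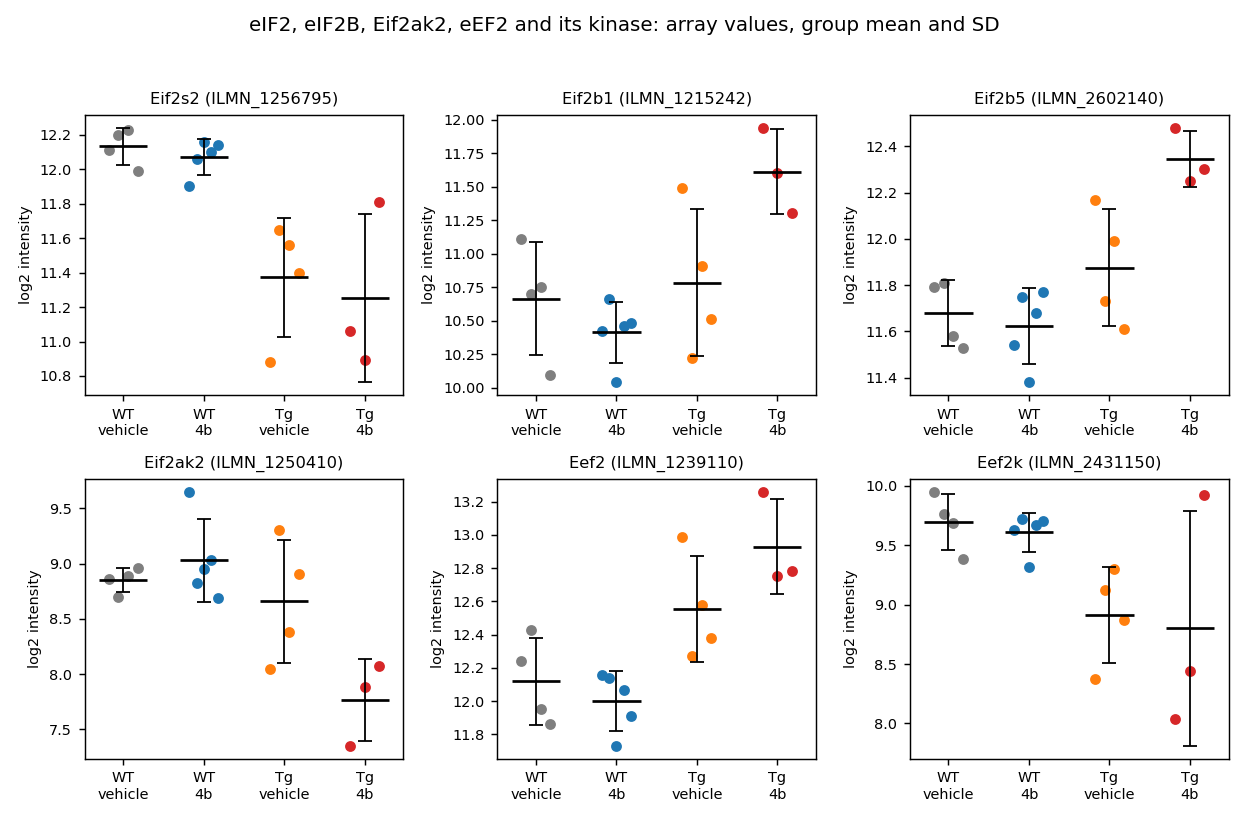
Log2 intensities by group for Eif2s2, Eif2b1, Eif2b5, Eif2ak2, Eef2 and Eef2k, 1 point per array with the group mean and SD. Eif2s2 separates the genotypes; Eif2b1 and Eif2b5 are highest and Eif2ak2 lowest in Tg 4b; Eef2 is higher and Eef2k lower in most transgenic arrays.

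Eif5, which triggers GTP hydrolysis by eIF2 at the start codon, was higher by all 3 of its probes. Eif5 (ILMN_3072536) read 11.72, 11.70, 11.56 and 11.70 in WT vehicle, 11.79, 11.78, 11.55, 11.52 and 11.69 in WT 4b, 12.57, 12.22, 12.03 and 11.97 in Tg vehicle and 12.42, 12.40 and 11.88 in Tg 4b. The genotypes did not overlap, and the difference was 0.55 ± 0.11 (SE, adjusted p = 0.00214). The second Eif5 probe (ILMN_3151345) read 13.32, 13.14, 13.18 and 13.28 in WT vehicle, 13.24, 12.99, 13.33, 13.19 and 13.11 in WT 4b, 13.48, 13.51, 13.45 and 13.48 in Tg vehicle and 13.46, 13.49 and 13.49 in Tg 4b. Again all 7 transgenic arrays were above 13.33, the highest wild-type value, by 0.28 ± 0.08 (SE, adjusted p = 0.0141). The third Eif5 probe (ILMN_1240466) read 10.96, 10.72, 10.78 and 10.59 in WT vehicle, 11.04, 10.86, 10.87, 10.52 and 10.64 in WT 4b, 11.33, 11.18, 11.05 and 10.84 in Tg vehicle and 11.37, 11.19 and 11.19 in Tg 4b. Only Tg vehicle 4 lay inside the wild-type range, and the difference was 0.40 ± 0.11 (SE, adjusted p = 0.0101). Eif1a (ILMN_2698107), which aids scanning to the start codon, read 8.73, 9.03, 9.35 and 9.38 in WT vehicle, 9.55, 9.16, 9.48, 9.48 and 9.14 in WT 4b, 9.57, 9.06, 9.30 and 9.68 in Tg vehicle and 10.43, 10.48 and 9.56 in Tg 4b. The Tg 4b arrays lay above all wild-type arrays and the averaged difference was 0.54 ± 0.16 (SE, adjusted p = 0.0174). Without Tg 4b 1 or 2 it was 0.47 or 0.46, at adjusted p of 0.0557 or 0.06. Eif1ad (ILMN_2968032), an eIF1A-related gene, read 8.86, 9.20, 8.60 and 8.47 in WT vehicle, 8.48, 8.89, 8.48, 8.74 and 8.94 in WT 4b, 8.40, 8.35, 8.36 and 8.13 in Tg vehicle and 8.15, 8.54 and 8.67 in Tg 4b. It differed by -0.36 ± 0.13 (SE, adjusted p = 0.0423), and 11 of the single-array omissions ended the call, at adjusted p up to 0.129. Eif6, which keeps the large subunit from joining early, differed by 0.13 ± 0.09 and Eif1b, a copy of the scanning factor eIF1, by 0.06 ± 0.10 (SE), and neither was called.

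Within eIF4, probes of the eIF4A helicases and of the proteins that assist them were higher, while those of the cap-binding proteins were not called. Eif4a1 (ILMN_2618481) read 9.16, 9.57, 9.63 and 9.53 in WT vehicle, 9.83, 9.29, 9.73, 9.35 and 9.61 in WT 4b, 10.21, 9.72, 9.81 and 9.69 in Tg vehicle and 10.27, 10.19 and 10.04 in Tg 4b. It differed by 0.49 ± 0.12 (SE, adjusted p = 0.0056), with the Tg vehicle arrays above every WT vehicle array and Tg 4b above WT 4b. The second Eif4a1 probe (ILMN_2959480) read 12.25, 12.70, 12.62 and 12.88 in WT vehicle, 13, 12.52, 12.76, 12.71 and 12.78 in WT 4b, 12.94, 12.95, 12.91 and 12.94 in Tg vehicle and 13.24, 13.04 and 12.88 in Tg 4b. Its difference of 0.31 ± 0.11 (SE, adjusted p = 0.038) was lost in 12 of the single-array omissions, at adjusted p up to 0.106. Eif4a2 (ILMN_2613641) read 12.92, 12.90, 13.13 and 12.91 in WT vehicle, 12.73, 12.95, 13, 12.72 and 13.06 in WT 4b, 13.46, 12.90, 13.27 and 13.08 in Tg vehicle and 13.72, 13.75 and 13.39 in Tg 4b. All Tg 4b arrays exceeded the wild-type range, as did Tg vehicle 1 and 3, and the difference was 0.47 ± 0.11 (SE, adjusted p = 0.00389). The other Eif4a2 probe (ILMN_2976829) read 14.16, 13.88, 14.01 and 13.93 in WT vehicle, 13.71, 13.76, 14.02, 13.82 and 14.11 in WT 4b, 14.26, 13.81, 13.88 and 13.97 in Tg vehicle and 14.63, 14.65 and 14.06 in Tg 4b. It was called with 4b only, at 0.56 ± 0.17 (SE, adjusted p = 0.0209), and without Tg 4b 1 or 2 it fell to 0.47 or 0.46 at adjusted p of 0.106 or 0.113. Eif4a3 (ILMN_2588254), the helicase of the exon junction complex, read 9.75, 10.16, 9.65 and 9.76 in WT vehicle, 9.90, 9.74, 9.70, 9.89 and 9.99 in WT 4b, 10.33, 10.03, 10.13 and 9.99 in Tg vehicle and 10.68, 10.65 and 10.31 in Tg 4b. The 3 Tg 4b arrays and Tg vehicle 1 were above all wild-type arrays, and the difference was 0.49 ± 0.11 (SE, adjusted p = 0.00251).

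Eif4b and Eif4h stimulate the helicase. Eif4b (ILMN_2753323) read 9.0, 8.82, 8.30 and 8.27 in WT vehicle, 8.24, 8.51, 8.44, 8.45 and 8.63 in WT 4b, 9.60, 8.45, 8.99 and 8.31 in Tg vehicle and 10.15, 9.54 and 9.09 in Tg 4b. Its averaged difference was 0.69 ± 0.20 (SE, adjusted p = 0.0157), 3 of the 4 Tg vehicle arrays lay within the wild-type range, and without Tg 4b 1 it was 0.55 (adjusted p = 0.056). Eif4h (ILMN_1243395) read 12.85, 12.77, 12.68 and 12.88 in WT vehicle, 13.13, 12.81, 12.82, 12.76 and 12.76 in WT 4b, 13.07, 13.02, 13.14 and 13.07 in Tg vehicle and 13.68, 13.33 and 13.11 in Tg 4b. Tg vehicle did not overlap WT vehicle, and the averaged difference was 0.40 ± 0.10 (SE, adjusted p = 0.00647). Eif4enif1 (ILMN_2726950), which carries eIF4E to the nucleus and to processing bodies, read 7.07, 7.28, 7.45 and 7.05 in WT vehicle, 6.57, 6.78, 6.68, 7.02 and 7.27 in WT 4b, 7.74, 7.04, 7.31 and 7.12 in Tg vehicle and 7.76, 7.85 and 7.57 in Tg 4b. The 3 Tg 4b arrays and Tg vehicle 1 lay above the wild-type range, and the difference was 0.48 ± 0.13 (SE, adjusted p = 0.0128). The second Eif4enif1 probe (ILMN_2956153) read 9.83, 9.66, 9.50 and 9.64 in WT vehicle, 9.69, 9.52, 9.28, 9.54 and 9.55 in WT 4b, 10.06, 9.97, 9.66 and 9.75 in Tg vehicle and 10.20, 10.03 and 9.70 in Tg 4b. It was called at 0.33 ± 0.11 (SE, adjusted p = 0.0245), and leaving out Tg vehicle 1, WT vehicle 3, Tg 4b 2 or Tg 4b 1 ended the call, with adjusted p of 0.0508, 0.0521, 0.0602 and 0.0766. Eif4e, the cap-binding protein, differed by -0.44 ± 0.19 (SE, adjusted p = 0.0907). The 3 probes of Eif4e2 differed by 0.22 to 0.41 and the 3 of Eif4e3 by -0.19 to 0.11, and none of the 6 was called. Eif4ebp2, which binds eIF4E and blocks it, differed by 0.31 ± 0.19, and the scaffold gene Eif4g2 by -0.06 ± 0.11 and -0.17 ± 0.25 on its 2 probes.

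Elongation factors had calls in both directions. Eef2, the translocase, was higher by all 3 probes, and Eef2k, the kinase that inhibits it, was lower. Eef2 (ILMN_1252294) read 10.91, 11.06, 10.52 and 10.48 in WT vehicle, 10.68, 10.81, 10.35, 10.90 and 10.94 in WT 4b, 11.81, 11.20, 11.35 and 11.24 in Tg vehicle and 12.14, 11.36 and 11.42 in Tg 4b. The genotypes did not overlap, and the difference was 0.78 ± 0.15 (SE, adjusted p = 0.00141). The second Eef2 probe (ILMN_1239110) read 12.24, 12.43, 11.95 and 11.86 in WT vehicle, 12.16, 12.14, 11.73, 12.07 and 11.91 in WT 4b, 12.99, 12.27, 12.58 and 12.38 in Tg vehicle and 13.26, 12.75 and 12.78 in Tg 4b. Only Tg vehicle 2 and 4 lay within the wild-type range, and the difference was 0.68 ± 0.14 (SE, adjusted p = 0.00162). The third Eef2 probe (ILMN_2589181) read 11.69, 11.74, 11.22 and 11.07 in WT vehicle, 11.57, 11.49, 11.06, 11.34 and 11.49 in WT 4b, 12.06, 11.72, 12 and 11.61 in Tg vehicle and 12.53, 12.03 and 11.89 in Tg 4b. The same arrays overlapped and the difference was 0.59 ± 0.14 (SE, adjusted p = 0.00486). Eef2k (ILMN_2431150) read 9.95, 9.76, 9.69 and 9.38 in WT vehicle, 9.63, 9.72, 9.32, 9.67 and 9.70 in WT 4b, 8.37, 9.12, 9.30 and 8.87 in Tg vehicle and 8.04, 8.44 and 9.92 in Tg 4b. Of the transgenic arrays, 6 of 7 were below every wild-type array, and Tg 4b 3 at 9.92 was near the wild-type maximum of 9.95. The averaged difference was -0.79 ± 0.23 (SE, adjusted p = 0.0144); without Tg 4b 1 it was -0.60 (adjusted p = 0.05), and scaled by medians it was -0.60 (adjusted p = 0.0523). Without the 3 far arrays it was -0.14 (adjusted p = 0.621), and without the 6 arrays of high lymphocyte score -0.32 (adjusted p = 0.32).

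Of the 3 probes for Eef1a2, the muscle form of the tRNA-delivering factor, 1 was called. Eef1a2 (ILMN_2645171) read 12.60, 12.75, 12.17 and 11.93 in WT vehicle, 12.19, 12.52, 12.10, 12.61 and 12.30 in WT 4b, 12.98, 12.49, 12.90 and 12.49 in Tg vehicle and 13.21, 12.86 and 12.74 in Tg 4b. The difference was 0.47 ± 0.14 (SE, adjusted p = 0.0205), and without Tg 4b 1 it was 0.41 (adjusted p = 0.0652). The second Eef1a2 probe (ILMN_2666990) read 14.63, 14.57, 14.46 and 14.42 in WT vehicle, 14.53, 14.55, 14.36, 14.49 and 14.49 in WT 4b, 14.74, 14.42, 14.62 and 14.38 in Tg vehicle and 14.76, 14.74 and 14.66 in Tg 4b. Its averaged difference was 0.13 ± 0.08 (SE), and with 4b, where the groups did not overlap, 0.24 ± 0.12. The third Eef1a2 probe (ILMN_2971559) read 14.45, 14.44, 14.27 and 14.25 in WT vehicle, 14.33, 14.25, 14.33, 14.32 and 14.27 in WT 4b, 14.51, 14.38, 14.45 and 14.24 in Tg vehicle and 14.51, 14.49 and 14.44 in Tg 4b. This gave 0.11 ± 0.08, so the uncalled probes showed smaller differences than the called one. The single probe for Eef1a1, the form of most other tissues, was detected on 0 of 16 arrays, at intensities of 94.1 to 126, and was not tested. Eef1b2 (ILMN_1229042), an exchange subunit for eEF1A, read 11.23, 11.17, 11.29 and 11.16 in WT vehicle, 11.30, 11.59, 11.31, 11.29 and 11.35 in WT 4b, 11.54, 11.54, 11.43 and 11.77 in Tg vehicle and 11.46, 11.44 and 11.60 in Tg 4b. It was called at 0.25 ± 0.09 (SE, adjusted p = 0.0383), but 12 of the single-array omissions ended the call, at adjusted p up to 0.0782, and its other 2 probes differed by 0.13 ± 0.14 and 0.09 ± 0.18. Eef1g (ILMN_2777282), the γ subunit, read 14.40, 14.51, 14.47 and 14.37 in WT vehicle, 14.37, 14.34, 14.38, 14.38 and 14.56 in WT 4b, 14.04, 14.39, 14.29 and 14.26 in Tg vehicle and 14.09, 13.92 and 14.33 in Tg 4b. It differed by -0.24 ± 0.09 (SE, adjusted p = 0.0491), and 14 of the omissions ended the call, at adjusted p up to 0.148. Eef1d, the δ subunit, differed by 0.08 ± 0.09 and -0.33 ± 0.17 on its 2 probes and was not called. The probe at -0.33 was dim, with values of 5.11 to 6.42, and was detected on 10 arrays.

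Enzymes that methylate eEF1A and a binding partner of the eEF1 group were also called. Eef1akmt1 (ILMN_1235697), a lysine methyltransferase for eEF1A, read 10.23, 10.56, 10.43 and 9.79 in WT vehicle, 9.79, 10.55, 10.32, 10.23 and 10.50 in WT 4b, 9.21, 9.52, 9.69 and 9.52 in Tg vehicle and 9.18, 9.64 and 9.87 in Tg 4b. With vehicle the genotypes did not overlap, Tg 4b 3 was the only transgenic array inside the wild-type range, and the averaged difference was -0.74 ± 0.15 (SE, adjusted p = 0.00188). Eef1e1 (ILMN_2703844), a scaffold protein of the tRNA synthetase complex, read 9.39, 9.32, 10.05 and 9.32 in WT vehicle, 9.25, 9.73, 9.86, 9.27 and 9.66 in WT 4b, 8.63, 9.02, 9.01 and 9.05 in Tg vehicle and 8.44, 8.27 and 9.35 in Tg 4b. It differed by -0.73 ± 0.17 (SE, adjusted p = 0.00496), and again only Tg 4b 3 lay inside the wild-type range. Without the 3 far arrays the difference was -0.35 (adjusted p = 0.276), and without the 6 of high lymphocyte score -0.45 (adjusted p = 0.176). Eef1aknmt (ILMN_1218104), which methylates the amino end of eEF1A, read 7.56, 7.78, 7.33 and 7.46 in WT vehicle, 7.31, 7.58, 7.48, 7.38 and 7.69 in WT 4b, 7.81, 7.56, 7.94 and 7.52 in Tg vehicle and 8.21, 8.06 and 7.97 in Tg 4b. Its difference was 0.39 ± 0.10 (SE, adjusted p = 0.0103), and its 4 other probes, at 0.07 to 0.26, were not called. Those 4 were dim, at log2 values of 4.65 to 6.24 and detected on 3 to 14 arrays. Eif5a, whose hypusine-bearing protein helps the ribosome past difficult stretches, differed by -0.25 ± 0.10 (SE, adjusted p = 0.0724) and -0.16 ± 0.09 (adjusted p = 0.179) on its 2 probes.

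Among mice given vehicle alone, 5 of 76 members (6.58%) were called between the genotypes, close to the 5.25% of all probes. Of these, 3 were higher (3.95% against 2.35% of all probes) and 2 lower (2.63% against 2.9%). Eif3d (0.65 ± 0.14 SE, adjusted p = 0.0143), Eif3b (0.67 ± 0.17, adjusted p = 0.032) and Eif3c (0.66 ± 0.18, adjusted p = 0.0493) were higher. Eif2s2 (-0.76 ± 0.20, adjusted p = 0.0376) and Eef1akmt1 (-0.77 ± 0.21, adjusted p = 0.046) were lower. Leaving out WT vehicle 3 alone left 0 members called against 2.04% of all probes, with Eif3d at an adjusted p of 0.0517. Leaving out WT vehicle 2, Tg vehicle 1 or Tg vehicle 3 left 1, against 1.88% to 3.22%. Without WT vehicle 1, any of WT 4b 2 to 5, Tg vehicle 2 or Tg vehicle 4, 2 were left, against 2.55% to 5.49%. Without the others 3 to 6 were left, against 4.27% to 6.26%. Values did not overlap between the groups for 19 members (25%), against 12.4% of all probes. The median difference was 0.10, against 0.01 over all probes.

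Among mice given 4b, 34 members (44.7%) were called between the genotypes, against 27.4% of all probes: 29 higher (38.2% against 15.6%) and 5 lower (6.58% against 11.8%). Groups of values did not overlap for 36 members (47.4%), against 30.6%. The median difference was 0.30, against 0.02. Extremes were -1.28 ± 0.32 (SE, adjusted p = 0.00966) for Eif2s2 (ILMN_2774435) and 1.49 ± 0.31 (adjusted p = 0.003) for Eif3b (ILMN_1233746). That Eif3b probe passed the detection filter only through the transgenic arrays, so its difference is not separate support. With the lymphocyte score as a covariate, 34 members (44.7%) were called, 29 higher and 5 lower, against 32.5% of all probes. The member median in that fit was 0.30. The count changed with Tg 4b 1 and 2, which had high lymphocyte scores and lay far along the first component: without array 1 it was 13 members, and without array 2 it was 19, each against 15% of all probes. Without the 6 arrays of high lymphocyte score, which leaves 1 Tg 4b array, 0 members were called against 0.0365% of probes. Without the 3 far arrays, 1 was called against 1.53%. The member medians in these fits were 0.21 and 0.23. Without the 6 arrays, Eif3c differed by 1.03 (adjusted p = 0.155), Eif3b (ILMN_2671259) by 1.02 (adjusted p = 0.149) and Eif3d by 0.65 (adjusted p = 0.235). In those fits the lone Tg 4b array is assumed to vary like the other groups.

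The group means in the vehicle and 4b comparisons of genotype share no arrays. The tests of these comparisons do share a variance estimate, pooled over all groups. Of 76 members, 63 (82.9%) had the same sign in both, against 73.1% of all probes, and 46 (60.5%) were above 0 in both, against 37.9%. The 5 members called with vehicle were also called with 4b (6.58% against 4.15% called in both). Because of the shared variance estimate, these calls are not independent of each other. With only the compared groups fitted, 0 members were called with vehicle, against 1.18% of all probes. In the same setting 28 members were called with 4b, against 26.1%. Eif2b1 (ILMN_1215242), at 0.12 ± 0.26 with vehicle and 1.20 ± 0.27 with 4b, and Eif2ak2, at -0.19 ± 0.26 and -1.26 ± 0.27 (SE), were among the members farthest from equal differences. The test of that inequality is the interaction described below, which neither passed.

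**Figure D5:**
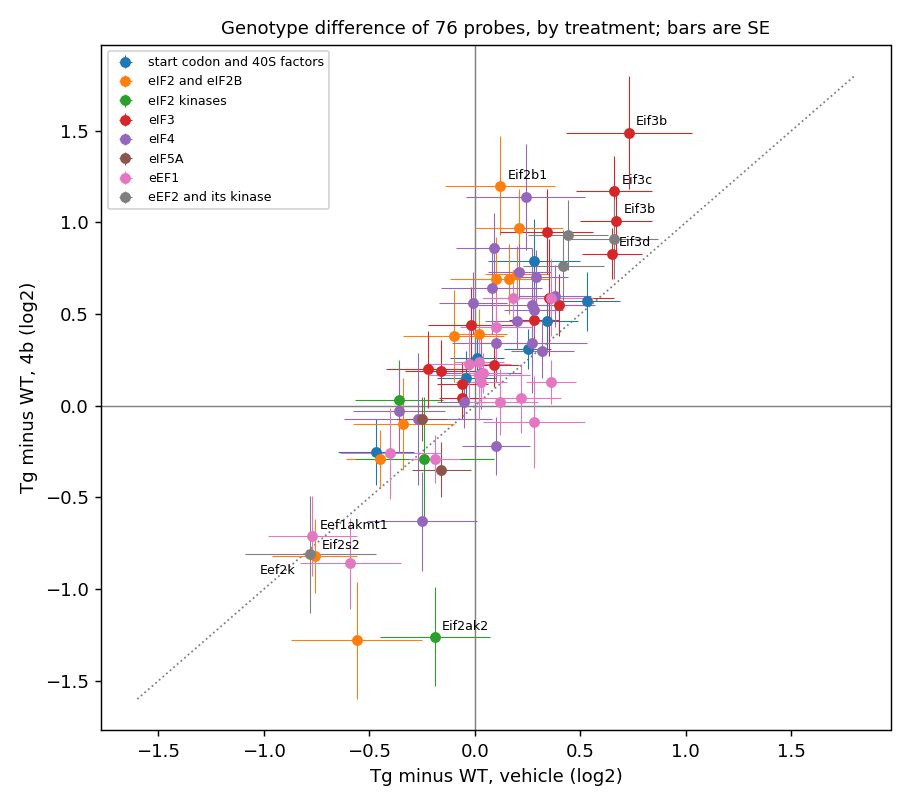
Genotype difference (Tg minus WT, log2) of the 76 member probes in mice given vehicle (horizontal) against mice given 4b (vertical), coloured by role; bars are SE and the dotted line marks equal differences. Eif3b, Eif3c and Eif3d lie at the upper right, Eef1akmt1, Eif2s2 and Eef2k at the lower left.

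Treatment with 4b gave no called member in either genotype. In wild-type mice 0 of 76 members and 0% of all probes were called by limma, and 1 member (1.32%) and 365 probes (2.66%) had an unadjusted p under 0.05. That member was Eif1b (ILMN_2731629), with values of 11.70, 11.35, 11.40 and 11.55 in WT vehicle, 10.91, 11.21, 11.11, 11.36 and 11.38 in WT 4b, 11.40, 11.38, 11.52 and 11.56 in Tg vehicle and 11.13, 11.41 and 11.51 in Tg 4b. The 4b arrays were lower by 0.31 ± 0.13 (SE, adjusted p = 1), with overlapping groups. Eif3j1 (ILMN_2832228), a loosely bound eIF3 subunit with a near-identical mouse copy that may share its probe, read 8.81, 9.13, 8.78 and 8.35 in WT vehicle, 7.97, 8.32, 8.12, 8.73 and 8.69 in WT 4b, 8.66, 8.80, 8.45 and 8.29 in Tg vehicle and 8.51, 8.69 and 8.48 in Tg 4b. The difference was -0.40 ± 0.19 (SE, adjusted p = 1). The median member difference in wild-type mice was -0.04, against -0.03 over all probes.

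In transgenic mice 0 members and 0% of probes were called for 4b, and 13 members (17.1%) had an unadjusted p under 0.05, against 14.2% of probes. Eif2b1 (ILMN_2600508) differed by 0.72 ± 0.22 (SE, adjusted p = 0.192), Eif1a by 0.75 ± 0.24 (adjusted p = 0.196) and Eif2ak2 by -0.89 ± 0.28 (adjusted p = 0.196). The median member difference was 0.15, against -0.01, and 58 members (76.3%) were above 0, against 49% of probes. Groups did not overlap for 4 members (5.26%), against 8.33% of probes. Eif2b5 (ILMN_2602140), Eif3c and Eef1aknmt (ILMN_1218104) were higher with 4b and 1 Eif5a probe was lower. Leaving out Tg vehicle 1 gave 2 of 76 members called, against 2.95% of all probes. Leaving out Tg 4b 3 gave 4 of 76 against 3.41%, and array weights gave 13 of 76 against 16.6%. Averaged over genotypes, 0 members and 0% of probes were called for 4b by limma, and 3 members (3.95%) and 1082 probes (7.89%) had an unadjusted p under 0.05. Eif1a, at 0.50 ± 0.16 (adjusted p = 0.605), and Eif2b1 (ILMN_2600508), at 0.34 ± 0.15 (adjusted p = 0.623), had the smallest p.

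The interaction, which tests whether 4b acted differently in the genotypes, called 0 members and 0% of probes by limma, and 8 members (10.5%) and 1342 probes (9.79%) had an unadjusted p under 0.05. Eif4enif1 (ILMN_2726950) had an interaction of 0.77 ± 0.27 (SE, adjusted p = 0.469). Those of Eif2b1 (ILMN_1215242) and Eif2ak2 were 1.08 ± 0.38 and -1.07 ± 0.37, both at an adjusted p of 0.474. The median member interaction was 0.22, against 0.02, and 61 members (80.3%) were above 0, against 51.4% of probes. A difference in the response to 4b was therefore not shown for any member.

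Genes that act on or beside these factors were set against the averaged genotype difference, where 17.9% of all probes were called higher and 14.3% lower. Of 12 mTORC1 and MNK signalling genes tested, with 18 probes, 4 probes were higher and 4 lower, with a median of 0.12. Eif4ebp1, the repressor of eIF4E that mTORC1 inactivates, had the largest difference there at 1.48 ± 0.17 (SE, adjusted p = 5.24e-05). Mknk2, a kinase of eIF4E, differed by 0.88 ± 0.12 (adjusted p = 0.000142) and Tsc1, an inhibitor of mTORC1, by 0.76 ± 0.16 (adjusted p = 0.00236). Tbc1d7, a partner of Tsc1, was lower on 2 probes (-0.85 ± 0.16 and -0.79 ± 0.16) and not called on its other probe (0.23 ± 0.15). Of 9 genes of the eIF2 phosphatase and stress response, 1 of 10 probes was called, with a median of 0.08. This was Ppp1r15a, which brings the phosphatase to eIF2, at 1.53 ± 0.27 (adjusted p = 0.000742). Among those not called, Atf4 differed by 0.04 ± 0.84, an SE too wide to tell whether it changed. The 2 probes of Ddit3 differed by -0.23 ± 0.19 and 0.05 ± 0.22.

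Of 8 release and recycling genes, 1 of 11 probes was higher and 4 lower, with a median of -0.07. Denr and Mcts1, partners in recycling the small subunit, were lower, with differences of -0.63 ± 0.11 (adjusted p = 0.000538) and -0.53 ± 0.12 (adjusted p = 0.00478) for Denr and -0.53 ± 0.10 (SE, adjusted p = 0.00141) for Mcts1. The release factors Etf1 and Gspt1 differed in opposite directions, by -0.23 ± 0.08 (adjusted p = 0.0496) and 0.29 ± 0.09 (adjusted p = 0.0295). Of 7 poly(A) tail binding genes, 3 of 12 probes were higher and 0 lower, with a median of 0.14: both of Paip2b (0.71 ± 0.22 and 0.42 ± 0.13) and 1 of 3 of Pabpc1 (0.55 ± 0.18). Of 8 mitochondrial factors, 1 of 11 probes was higher (Mtif3, 0.55 ± 0.17) and 2 lower (Gfm2, -0.54 ± 0.12, and Tufm, -0.39 ± 0.12), with a median of -0.10. Of 4 hypusine and diphthamide enzymes, 1 of 8 probes was higher and 2 lower, with a median of -0.15, and 2 probes of Dph3, needed for the diphthamide of eEF2, were called in opposite directions (0.36 ± 0.12 and -0.56 ± 0.11).

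The symbols of 10 further genes matched but had no probe that passed the filter: Eef1a1, Eef1akmt2, Eif1ax, Eif2ak4, Eif3e, Eif3m, Eif4e1b, Eif4ebp3, Eif5a2 and Eif5b. A probe just inside the limit was Eef1aknmt ILMN_2740461, detected on 3 arrays. Just outside were Eef1d ILMN_3061673, detected on 2 arrays, and Eif3a ILMN_2845039, detected on 1. Probes of different brightness are not comparable in level, so no order of abundance among the factors is given.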

How the data were processed

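Total RNA of 16 muscles was measured on Illumina bead arrays, 1 array per mouse. As deposited, 1 table gives intensities from 81.2 to 44501, which per the file headers were not normalized. Each intensity has a detection p-value beside it, per the file headers, and how its background was set is not stated in the labels. The authors' own log2 values, in another table, served as an alternative.

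The normexp model of limma (version 3.58.1, R 4.3.3) removed background, estimated through the detection p-values with an offset of 16. Quantile normalization and log2 followed. Each of the 13706 probes detected (p-value under 0.05) on 3 or more arrays was tested on its own. limma fitted the 4 group means on all 16 arrays, with 12 residual and 3.33 prior degrees of freedom. The 7 contrasts were tested two-sided, with Benjamini-Hochberg adjustment over all tested probes. Quantile normalization hides a shift of most genes, and the offset shrinks differences of dim probes. Precision is set by the number of mice, 3 to 5 a group. For an "at least" fold, the dim probe counts on each array as no lower than the weakest detected signal.

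Gene symbols came from the platform annotation: 23978 probes had 1 symbol, 0 had several and 1719 had none. All 45 member genes matched RefSeq, and 0 symbols changed. The members, gene lists and alternatives were chosen with earlier results of these data known. Values on every array are given for each member called in any comparison, for Eef1a2, and for the 2 smallest p in a comparison with no call. In the other lists, at most 4 called genes a list were picked by p, and genes such as Atf4 and Ddit3 were added after their values were seen. The fit was tested on simulated data before use. Columns of no sample numbered 0.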

Additional observations from a re-analysis of the deposited data

Results flagged for a closer look

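Of 135 sets of values checked, each 1 named probe in 1 group of 4 or 5 arrays, 9 held an array far from the others of its group by Dixon's ratio, which chance alone would give in about 5% of such sets. No explanation was weighed for any of them. Low values were Eif1ad in Tg vehicle 4 (8.13), Eef1e1 in Tg vehicle 1 (8.63) and Eef2k in WT 4b 3 (9.32). High values were Eef1e1 in WT vehicle 3 (10.05), Eef1b2 in WT 4b 2 (11.59), Eef1g in WT 4b 5 (14.56), Eif3a in Tg vehicle 1 (11), Eif4a2 in WT vehicle 3 (13.13) and Eif4h in WT 4b 1 (13.13).

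In 4 of the named probes, all transgenic mice given 4b lay on one side of the mean of their vehicle group. All wild-type mice given 4b lay on the other side of their own. This rule was applied to named probes only, many of them named for a genotype call with 4b. The share of all probes that meet it was not computed, so whether 4 is unusual cannot be told. The interaction was 1.08 ± 0.38 (SE) for Eif2b1 (ILMN_1215242), 0.36 ± 0.19 for Eif2b4, 0.34 ± 0.24 for Eif3b (ILMN_2671259) and 0.14 ± 0.16 for Eef1a2 (ILMN_2971559). None passed limma's interaction test, with adjusted p of 0.474, 0.539, 0.632 and 0.766 in that order.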

How the results depend on the processing

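Across 33 alternatives per comparison, the count of called members stayed within 1.5 times in 30 for the averaged genotype difference, 28 for genotype with 4b and 15 for genotype with vehicle. Averaged, 1 probe a gene gave 24 of 45 genes; leaving out the 6 arrays of high lymphocyte score gave 4 and the 3 far transgenic arrays 6, both chosen after seeing the data. In the average, 33.2% of all probes kept were called with 1 probe a gene. With 4b, 1 probe a gene gave 21 of 45 genes, against 28.3%. Leaving out the 6 or the 3 arrays left 1 Tg 4b array, and the member medians with 4b were then 0.21 and 0.23. With vehicle, fitting only the groups compared gave 0 members, against 1.18% of all probes. A covariate for the share of probes detected gave 9, against 9.94%. Leaving out animals numbered in 3 digits gave 1 against 2.28%, and the Xist level as a covariate, also added later, 1 against 3.75%. Without the 3 far arrays the member median with vehicle was 0.02, against 0.01 over all probes. Array weights gave 13 for 4b in transgenic mice, against 16.6% of all probes, and 1 for 4b averaged over genotypes, against 1.55%. Leaving out single arrays gave 0 to 6 members for genotype with vehicle (0 without WT vehicle 3, against 2.04% of all probes). For genotype with 4b it gave 13 to 35 (13 without Tg 4b 1 and 19 without Tg 4b 2, each against 15%). For the average it gave 26 to 42 (26 without Tg 4b 1, against 25.7%, and 42 without Tg 4b 3, against 34%). For 4b in transgenic mice the count was 0 to 4 (2 without Tg vehicle 1, against 2.95%, and 4 without Tg 4b 3, against 3.41%). For the other comparisons it was 0. Of 77 named calls, 74 were lost under at least 1 alternative and 0 reversed. The cause was not tested. No paired analysis was possible because the labels carry animal numbers and no replicate numbers shared between groups. The precision of each value was limited by 3 to 5 mice a group, and dim probes by their signal over background.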
